A study of Mus musculus with 2 samples.

Results

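Neurotrophins, growth factors and their receptors were examined in the prefrontal cortex (PFC) of mice exposed to chronic mild stress (CMS) and of control mice (C group). The 8 genes were chosen by name for their function and not for their values on these arrays. Earlier results of these data were known at that time. They are the neurotrophins Bdnf and Ntf3, their receptors Ntrk2 and Ntrk3, the neurosecretory granule gene Vgf, and the growth factors Gdnf, Fgf2 and Vegfa. They were 8 of 37074 distinct names on the arrays, of which 20660 were RefSeq gene symbols, and all 8 had at least 1 probe. In total, 14 probes on 33 spots read them.

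The mice were males of the strain labelled C57Bl/6 N sea, 9 to 10 weeks old when the experiment began. The C group received ordinary care in group cages, and the CMS group was housed singly and met varied mild stressors for 4 weeks, so that single housing and the stressors cannot be told apart. RNA of the PFC was pooled within each group, and each pool was hybridized to 1 one-color Agilent array. The series text gives 7 mice for each pool, and the methods give 10 mice per group for arrays and qRT-PCR. No spread between mice could be taken from single arrays, and the pools were compared with no test. The ratios below are therefore those of 1 pool over another.

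Neurotrophins are secreted proteins that bind Trk receptor tyrosine kinases on neurons and act on survival, dendritic growth and synaptic strength. BDNF is the preferred ligand of TrkB, encoded by Ntrk2, and neurotrophin-3, encoded by Ntf3, that of TrkC, encoded by Ntrk3. Bdnf and Vgf are transcribed in response to neuronal activity, and the neurotrophin hypothesis of depression places lower BDNF in the cortex and hippocampus under stress. Fgf2 is made largely by astrocytes in the adult brain, Vegfa acts on blood vessels and neurons, and Gdnf is a survival factor for dopaminergic and motor neurons.

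None of the 8 genes passed 2-fold in either direction in the CMS pool. Of the 7 read well above background by both arrays, 5 were lower and 2 were higher in the CMS pool, except that Vegfa was lower with no scaling and that Bdnf was at 0.00, just above the line, with 75th percentile scaling and with quantile normalization. Their log2 ratios of CMS over control had a median of -0.11. The median of all genes well above background on both arrays was also below 0, at -0.03, and Bdnf lay above it. Among all genes with a ratio, 2.53% passed 2-fold, 1.96% higher and 0.564% lower. Among genes well above background on both arrays 1.33% did, 1.16% higher and 0.173% lower, so that a count of 0 among 8 genes does not set them apart from the array as a whole. Fgf2 had the highest log2 ratio, 0.26, and Ntrk3 the lowest, -0.17. In pooled tissue, fewer cells of a type and less RNA per cell cannot be told apart.

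Each array was scaled to a mean signal of 2500 over its probes, and all signals below are on this linear scale. A probe counted as dim where it was not well above background, and its ratio was then a bound, taken against the lowest signal well above background. That signal was 17.8 in the control pool and 17.6 in the CMS pool. The SD of log2 ratios was 0.13 between spots of a probe, taken from 342 probes, and 0.18 between probes of a gene, taken from 4044 genes. The scanner's own error estimate gave each ratio a 95% interval, which covers the error of the spots. It covers neither the scaling between the arrays nor the mice. Across all genes well above background on both arrays the median log2 ratio was -0.03, and the central 95% of genes lay between -0.46 and 0.53. With no scaling the median of all genes with a ratio was -0.20 in place of -0.03, and the counts of genes higher and lower below hold for the scaled signals. Those counts are taken against 0, whereas the median of the array was itself below 0. Markers of neurons had a median log2 ratio of -0.04 with 8 of 8 well above background, those of cortical layers 0.05, astrocytes 0.03, microglia 0.05, brain endothelium -0.02, oligodendrocytes -0.16, choroid plexus -0.08 and striatum -0.17, and the 2 erythroid markers measured had 0.45. Hepatocyte markers, which PFC tissue should lack, passed 2-fold, all higher with CMS, for 10 of 10 genes, with log2 ratios from 2.26 to 3.53 and a summed signal of 5173 in the control pool and 50825 in the CMS pool. No hepatocyte marker was at 0 in either pool. For Gapdh, the log2 ratio was 0.04.

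**Figure D1:**
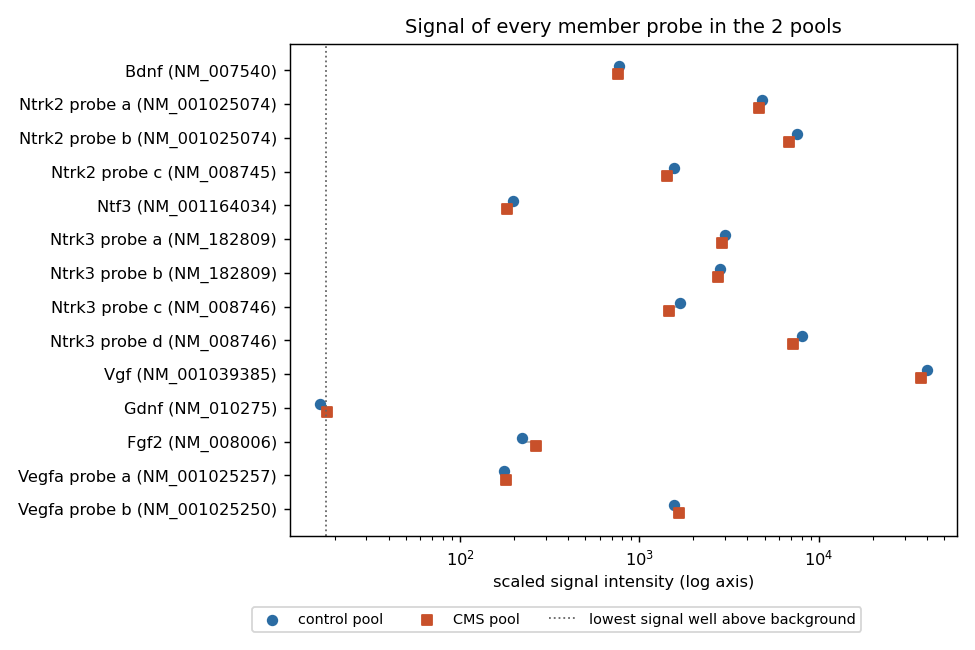
Scaled signal intensity (log axis) of each of the 14 probes in the control pool (circles) and the CMS pool (squares), with the lowest signal well above background as a dotted line. Each gene's own pair of points lies close together, Vgf had the brightest probe, and the Gdnf probe lay at the background limit. Levels of different probes are not comparable.

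Bdnf was read by 1 probe (NM_007540) on 1 spot. Its scaled signal was 768 in the control pool and 758 in the CMS pool. The log2 ratio was -0.02, with a scanner interval from -0.42 to 0.38. Bdnf thus lay at the middle of the array, at percentile 54.0 of genes well above background on both arrays, and 92.0% of those genes lay at least as far from their median. A difference in Bdnf RNA of 2-fold lay outside the scanner interval, and one of 1.30-fold higher or 0.747-fold lay at its ends.

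The Bdnf locus carries several alternative first exons, each with a promoter of its own, and the files do not say in which exon the probe lies. RefSeq (GRCm38.p6) gave 7 Bdnf promoter windows, each of 250 bases before and 50 after a transcription start. The window below is shown because it was the only Bdnf window with the core of the cAMP response element (CRE), the motif read by CREB in activity-dependent transcription. It lies at chr2:109692186-109692435 on the plus strand and holds the 250 bases before the start. Capitals mark the core TGACG, which reads CGTCA on this strand and lies 35 to 31 bases before the start.
Bdnf: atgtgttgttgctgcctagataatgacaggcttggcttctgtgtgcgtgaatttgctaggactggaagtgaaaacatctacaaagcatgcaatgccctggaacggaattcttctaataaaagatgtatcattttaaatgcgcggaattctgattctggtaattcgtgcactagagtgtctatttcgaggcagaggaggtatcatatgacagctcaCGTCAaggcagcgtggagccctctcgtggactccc

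A second Bdnf window held the only AP-1 motif (TGANTCA, read by Fos and Jun proteins) found among the windows of these genes. The stretch around it lies at chr2:109676869-109676896 on the plus strand, and capitals mark the motif.
Bdnf AP-1: acccacaaaaaTGAATCAaggtaatttc

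The signals of activity-induced genes are given beside Bdnf because Bdnf is itself transcribed with activity. Of 13 such genes, 6 passed 2-fold and were lower with CMS, against 0.564% of all genes with a ratio that were lower past 2-fold. Their median log2 ratio was -0.97. The immediate early gene Fos went from 1502 in the control pool to 574 in the CMS pool, with a log2 ratio of -1.39, and Arc, a synaptic plasticity gene, from 15897 to 4838, a log2 ratio of -1.72. Nr4a1 had a log2 ratio of -1.25, Npas4, a neuron-specific factor that acts on Bdnf promoters, -0.83, and Egr1 -0.53. Not all genes of the list were lower, since by the probe used for each gene 12 were lower and 1 was higher. The exception was Homer1, a synaptic scaffold gene, with a log2 ratio of 0.16, but its 5 probes ran from -0.10 to 0.16. Nptx2, a secreted pentraxin, had -0.06 on the probe used and 0.37 on another, so that both signs depend on the probe. Bdnf, at -0.02, lay above the value of the probe used for each of these genes except Homer1. Whether this list differs from Bdnf beyond the spread between mice was not tested.

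Ntf3, the ligand of TrkC, had a signal of 197 in the control pool and 183 in the CMS pool on 1 spot (NM_001164034). The log2 ratio was -0.11, with a scanner interval from -0.52 to 0.30, and 55.2% of genes lay at least as far from the median of the array. Ntf5, which encodes neurotrophin-4 and like BDNF acts through TrkB, went from 44.4 to 44.9, a log2 ratio of 0.02. Both arrays read the 3 listed neurotrophins well above background, 1 higher and 2 lower, with 0 past 2-fold and a median of -0.02.

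Ntrk2 was read by 3 probes, and all 3 were lower in the CMS pool. The probe used for the gene (NM_001025074) had signals of 7591 in the control pool and 6791 in the CMS pool, with a log2 ratio of -0.16 and a scanner interval from -0.56 to 0.24. A second probe of that transcript was printed on 10 spots per array. Its mean signal was 4822 in the control pool and 4645 in the CMS pool. The lowest, median and highest spots were 4529, 4817 and 5078 in the control pool and 4227, 4679 and 4921 in the CMS pool. These ranges overlapped for most of their width, and 2 of 10 spots were higher in the CMS pool than the spot at the same place on the other array. The log2 ratio of this probe was -0.05, with a scanner interval from -0.18 to 0.07. The third probe (NM_008745) gave 1566 and 1425, a log2 ratio of -0.14. The probe read most often thus had the ratio nearest 0. TrkB occurs as a full-length kinase and as truncated forms that lack it, and the arrays' files do not say which form each probe reads.

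Ntrk3 was read by 4 probes on 1 spot each, and all 4 were lower in the CMS pool. The probes of NM_008746 had signals of 8020 in the control pool and 7144 in the CMS pool, and of 1679 and 1470. Their log2 ratios were -0.17 and -0.19. The probes of NM_182809 had signals of 3016 and 2878, and of 2821 and 2741. Their log2 ratios were -0.07 and -0.04. The pairs of probes for 1 accession lay closer together than the accessions did, but the whole range over the 4 probes, from -0.19 to -0.04, was within the spread of 0.18 between probes of 1 gene. All 4 scanner intervals included 0. The probe used for the gene was at percentile 17.3 of the array, and Ntrk2 was at percentile 18.2.

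Both arrays read the 7 listed neurotrophin receptors well above background, 6 of them lower and 1 higher, with 0 past 2-fold and a median of -0.16. The largest ratios were those of Sorcs2, a sortilin-family receptor for proneurotrophins, which went from 867 to 728 with a log2 ratio of -0.25, and of Ngfr, the p75 receptor, which went from 101 to 89.2 with a log2 ratio of -0.18. The median of this list moved with the processing, to -0.06 after normexp background correction and quantile normalization.

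**Figure D2:**
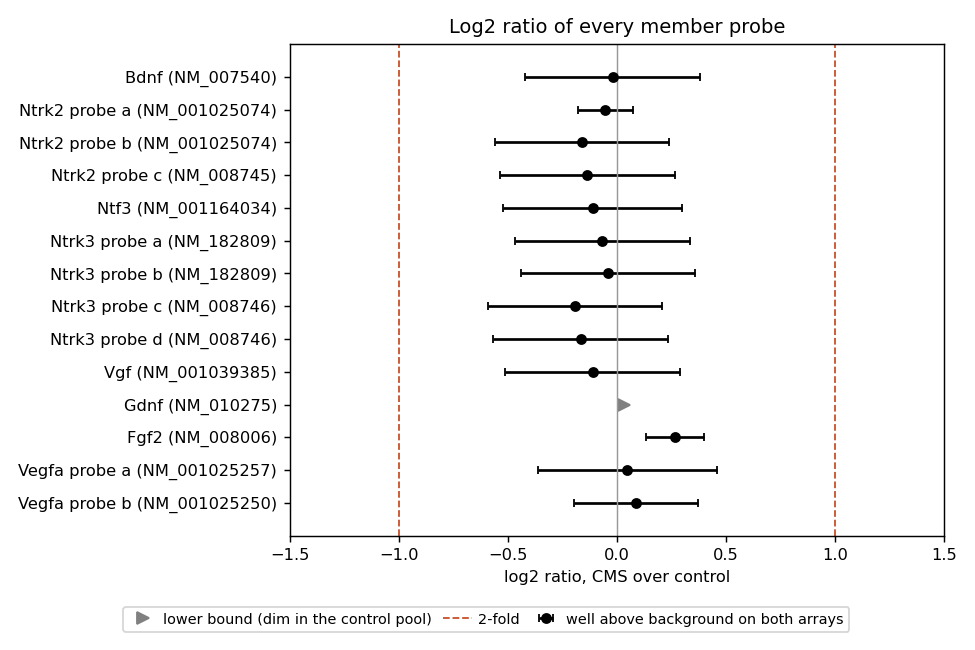
Log2 ratio of CMS over control for each of the 14 probes, with 95% intervals from the scanner's error estimate (bars) and dashed lines at 2-fold. The 13 probes well above background lay between -0.19 and 0.26 with every interval inside 2-fold, the Fgf2 interval, from 10 spots, did not include 0, and Gdnf is a lower bound.

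Vgf encodes a secreted neuropeptide precursor of the granin group that is induced by BDNF and by activity. Its probe (NM_001039385) on 1 spot had a signal of 40083 in the control pool and 37112 in the CMS pool. The log2 ratio was -0.11, with a scanner interval from -0.51 to 0.29, and 55.6% of genes lay at least as far from the median of the array. Both arrays read all 7 granin-group genes well above background, and 6 were lower and 1 higher, with 0 past 2-fold and a median of -0.04. The largest ratios were those of Scg2 (secretogranin II), which went from 20299 to 18150 with a log2 ratio of -0.16, and of Chga (chromogranin A), which went from 23462 to 21040, also with -0.16.

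Gdnf was the only gene of the 8 at the background limit. Its signal was 16.6 in the control pool, where it was dim, and 18.2 in the CMS pool, where it counted as well above background. The bound for Gdnf was at least 1.02-fold higher with CMS, and no difference was detectable at this signal. Of its family, Nrtn (neurturin) went from 1748 to 1657, a log2 ratio of -0.08, and Artn (artemin) from 213 to 241, a log2 ratio of 0.18, whereas Pspn was dim in both pools. The receptors of the family were all measured, and 3 of 6 were higher and 3 lower with 0 past 2-fold and a median of -0.09. Gfra1, the co-receptor that binds GDNF, went from 104 to 80.1, a log2 ratio of -0.38. Ret, the signalling receptor, went from 82.1 to 70.0, a log2 ratio of -0.23.

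Fgf2, a mitogen for glia and neural progenitors, had the largest log2 ratio of the 8 genes. Its probe (NM_008006) was printed on 10 spots per array, of which 1 in the control pool was marked as an outlier by the scanner and left out. The mean signal was 221 in the control pool and 265 in the CMS pool. The lowest, median and highest spots were 188, 216 and 254 in the control pool. They were 237, 260 and 309 in the CMS pool. The ranges overlapped at their ends, and 9 of 9 spots were higher in the CMS pool than the spot at the same place on the other array. The log2 ratio was 0.26, a fold of 1.20, with a scanner interval from 0.13 to 0.40 and an SD of 0.17 between spots. With the outlier spot kept it was 0.21. With no scaling it was 0.09, so that its distance from 0 rests in part on the scaling, which the scanner interval does not cover.

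The scanner interval of the Fgf2 probe did not include 0, whereas those of the other 12 probes well above background did. The number of spots bears on this, since the scanner SE was 0.068 for Fgf2 and 0.065 for the Ntrk2 probe with 10 spots each, and at least 0.204 for probes with 1 spot. The spots share 1 RNA pool per group, so they show how well the arrays were read and not how mice differed. Fgf2 was at percentile 93.0 of genes well above background on both arrays, and 12.4% of those genes lay at least as far from their median. Among the 305 probes with at least 8 usable spots, 10 had a ratio at or above that of Fgf2 (the Fgf2 probe included), the median was -0.04 and the range was -1.39 to 3.40.

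**Figure D3:**
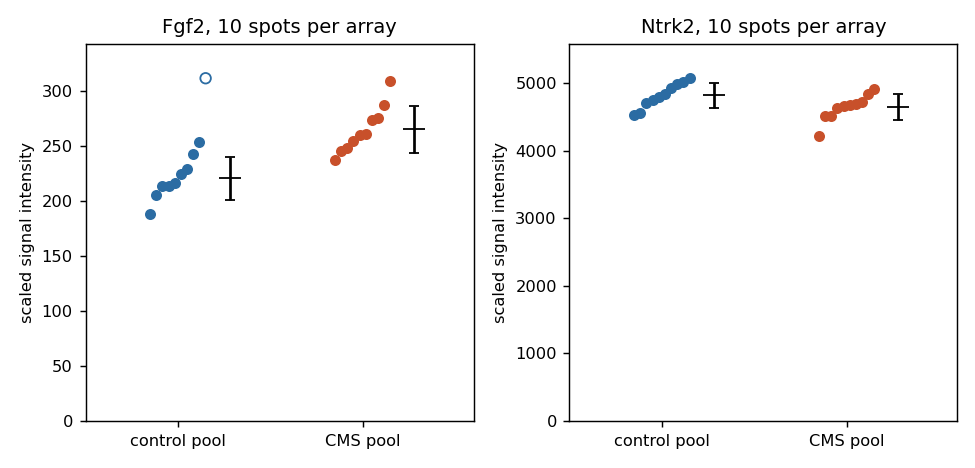
Scaled signal intensity of the single spots of the Fgf2 probe (left) and the Ntrk2 probe printed on 10 spots (right) in each pool, sorted by signal, with bars for the mean and SD over spots. The open circle is the outlier spot left out. The Fgf2 spots were 188 to 254 in the control pool and 237 to 309 in the CMS pool, whereas the Ntrk2 spots of the pools overlapped for most of their range.

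The RefSeq window of Fgf2 held 2 CRE cores, and those of Gdnf and Vegfa 1 each. These stretches are shown beside that of Bdnf because their windows share this motif, whose bearing on the ratios was not tested. They lie at chr2:109692389-109692417 (Bdnf, plus strand), chr3:37348501-37348529 and chr3:37348635-37348652 (Fgf2, plus strand), chr15:7809986-7810014 (Gdnf, plus strand) and chr17:46025356-46025384 (Vegfa, minus strand), and capitals mark the core on either strand.
Bdnf core: tatgacagctcaCGTCAaggcagcgtgga
Fgf2 core 1: ctttaggagctgCGTCAccgcagtctcct
Fgf2 core 2: ggggacgcggggTGACGc
Gdnf core: cactggagggcaCGTCAcgcagtgagagc
Vegfa core: agtgcgtgcccaCGTCAgagagcaacatc

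Both strands of 15 windows from 6 of the 8 genes were searched. Ntrk3 and Vgf had no window. The CRE core TGACG was in 4 of 15 windows, and in 20.8% of all 32851 RefSeq promoter windows. The full CRE, TGACG followed directly by TCA, was in 0 of 15 and in 1.79% of all windows. AP-1 (TGANTCA) was in 1 of 15 against 7.81%, the E-box (CANNTG) in 12 of 15 against 72.3%, the Sp1 motif (GGGCGG) in 8 of 15 against 35.7%, and the CArG box in 0 of 15 against 1.63%. The hypoxia core, ACGTG, was in 5 of 15 windows against 19.6%. In the Bdnf, Gdnf and Vegfa windows shown above, it overlapped the CRE core on the same strand. A match is a description of the letters in the window and not a binding site.

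Vegfa was read by 2 probes, both slightly higher in the CMS pool. The probe of NM_001025250 on 2 spots gave 1555 in the control pool and 1653 in the CMS pool. Its spots were 1537 and 1574 in the control pool and 1648 and 1658 in the CMS pool. The log2 ratio was 0.09, with a scanner interval from -0.20 to 0.37. The probe of NM_001025257 gave 175 and 181, a log2 ratio of 0.05. With no scaling between the arrays the Vegfa ratio was -0.09, so its direction rests on the scaling. Of 5 VEGF family ligands, 2 were higher and 3 lower with 0 past 2-fold and a median of -0.03, and the largest ratio was that of Vegfd, which went from 437 to 403 with -0.12. Of the receptors, the co-receptor Nrp2 went from 1883 to 1559, a log2 ratio of -0.27, and the co-receptor Nrp1 from 108 to 95.7, a log2 ratio of -0.18. Kdr, the main signalling receptor on endothelium, went from 8540 to 9681, a log2 ratio of 0.18, but its other probe gave 0.006. Flt1 had 0.02. Flt4, the lymphatic receptor, was dim in the control pool and at least 1.57-fold higher with CMS.

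The wider pathways were described with 12 lists of 142 genes chosen for function. A ratio was obtained for 130 genes, and 125 were well above background on both arrays. Of the 130 genes, 3 were higher and 1 was lower past 2-fold, or 3.08% against the 2.53% of all genes. Of the 125 genes, 123 lay within 0.5 of 0 on the log2 scale, and their median was -0.03, as for all genes.

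The genes past 2-fold were Plg, Cntf, Areg and Fgf17. Plg encodes plasminogen, a plasma zymogen made by the liver that also cleaves proneurotrophins once activated. It went from 61.2 in the control pool to 512 in the CMS pool, with a log2 ratio of 3.06. The hepatocyte markers had log2 ratios from 2.26 to 3.53, and their part in the Plg ratio was not tested. Cntf (ciliary neurotrophic factor) went from 104 to 229 on 1 probe, a log2 ratio of 1.14, whereas its other probe went from 150 to 158, a log2 ratio of 0.08. With no scaling the Cntf ratio was 0.96, with the mean of its probes 0.61 and under normexp with quantile normalization 0.085, so that it no longer passed 2-fold. The brightest probe was picked anew under each setting, and which Cntf probe gave 0.085 was not recorded. Areg (amphiregulin, a ligand of the EGF receptor) was dim in the control pool and at least 2.39-fold higher with CMS, with measured signals of 10.8 and 42.5, but under normexp with quantile normalization its log2 ratio was 0. Fgf17 was the only gene lower past 2-fold, with 138 in the control pool and a dim 8.24 in the CMS pool on 1 spot, a log2 ratio of at most -2.97. Fgf16 was dim in the control pool and at least 1.46-fold higher with CMS.

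The convertases and carriers that process proneurotrophins other than Plg had log2 ratios from -0.30 to 0.09 on the probes used. Cadps2 had -0.23, and another of its 3 probes gave -0.60. Of 10 such genes with a ratio, Plg included, 3 were higher and 7 lower, with a median of -0.04. Pcsk5, a proprotein convertase, went from 446 to 363, a log2 ratio of -0.30, and Furin from 1317 to 1404, a log2 ratio of 0.09. Mmp3 and Mmp9 were dim in both pools. Trk signalling, the adaptors and kinases downstream of the receptors, was read by 38 genes, of which 13 were higher and 25 lower with 0 past 2-fold and a median of -0.06. Its largest ratios were those of the ribosomal S6 kinase Rps6ka2, which went from 114 to 142 with a log2 ratio of 0.32, and of the exchange factor Sos1, which went from 121 to 97.9 with -0.30. Creb1, the factor that reads the CRE, had a log2 ratio of -0.09.

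Of 22 fibroblast growth factors, 14 were well above background on both arrays, 6 higher and 8 lower, with a median of -0.03 over the 16 genes with a ratio. Fgf14, an intracellular member that modulates sodium channels, followed Fgf2 with signals of 635 and 749 and a log2 ratio of 0.24, but another of its 3 probes gave -0.28. The FGF receptors and co-receptors had a median of 0.01 over 6 genes, with 4 higher, 2 lower and 0 past 2-fold. Fgfr4 went from 1144 to 1415, a log2 ratio of 0.31, and Kl (Klotho) from 40.2 to 47.8, a log2 ratio of 0.25. Fgfr1, a main receptor of FGF2 in brain, had -0.06 on the probe used and up to 0.39 on another.

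Other neurotrophic factors and receptors had a median of 0.00 over 24 genes with a ratio. Beside Cntf, the largest ratio of those well above background on both arrays was that of Egfr, the receptor of the EGF ligands. Egfr went from 390 to 550 on a probe with 10 spots, a log2 ratio of 0.49, and its other probes gave 0.31 and 1.12. Lifr, a receptor subunit for LIF and CNTF, had 0.13 on the probe used and up to 1.84 on another, and Nrg2 (neuregulin 2) 0.06 and 0.75. Erbb3 and Erbb4 were dim in both pools. Liver also expresses Egfr and Fgfr4. The part of the hepatocyte signal in their ratios, or in those of the other genes of the pathway lists, was not tested.

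**Figure D4:**
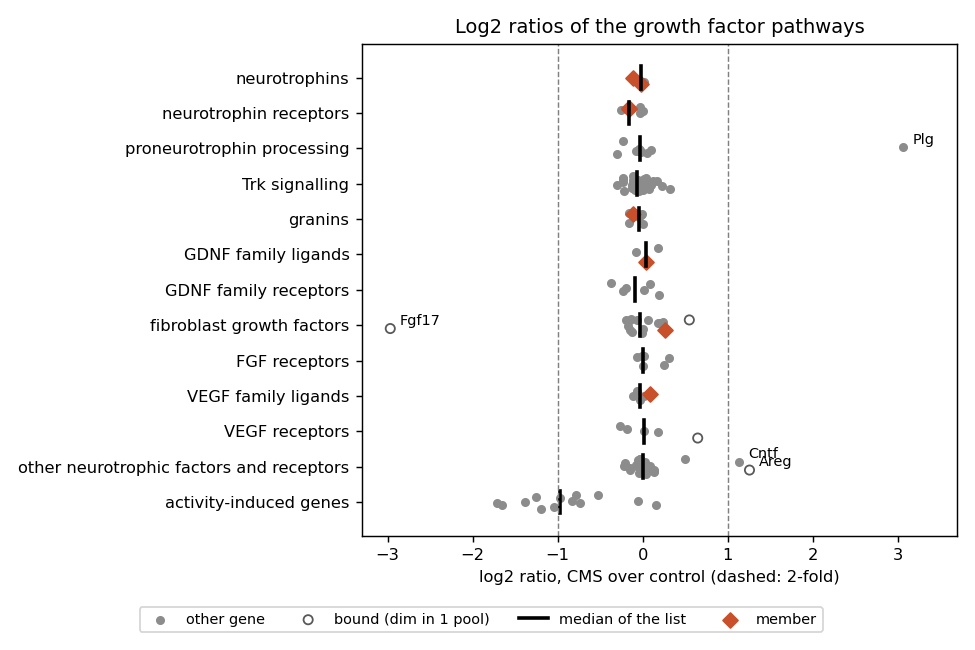
Log2 ratio of CMS over control for each gene of the 12 pathway lists and of the activity-induced genes, with the 8 genes of interest as diamonds, bounds of genes dim in 1 pool as open circles, list medians as bars and dashed lines at 2-fold. The pathway lists center near 0 with Plg, Cntf, Areg and Fgf17 beyond 2-fold, whereas the activity-induced genes had a median of -0.97.

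Beyond the spread of 0.13 between spots, the ratios of the 7 genes other than Gdnf moved with no scaling, where Gdnf had no ratio. The ratio of Gdnf moved under normexp together with quantile normalization, and it had none under quantile normalization alone. Over these alternatives Bdnf ran from -0.19 to 0.00, Ntrk2 from -0.33 to -0.11, Ntf3 from -0.29 to -0.09, Ntrk3 from -0.34 to -0.12, Vgf from -0.28 to -0.09, Fgf2 from 0.09 to 0.28 and Vegfa from -0.09 to 0.11. Gdnf, where it had a ratio, ran from 0.00 to 0.17. Under each of these settings 0 of the 8 genes passed 2-fold. The scanner intervals of the 13 probes well above background reached from 0.663-fold to 1.37-fold, which bounds the difference between these RNA pools by scanner error alone. The spread between mice is unknown.

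**Figure D5:**
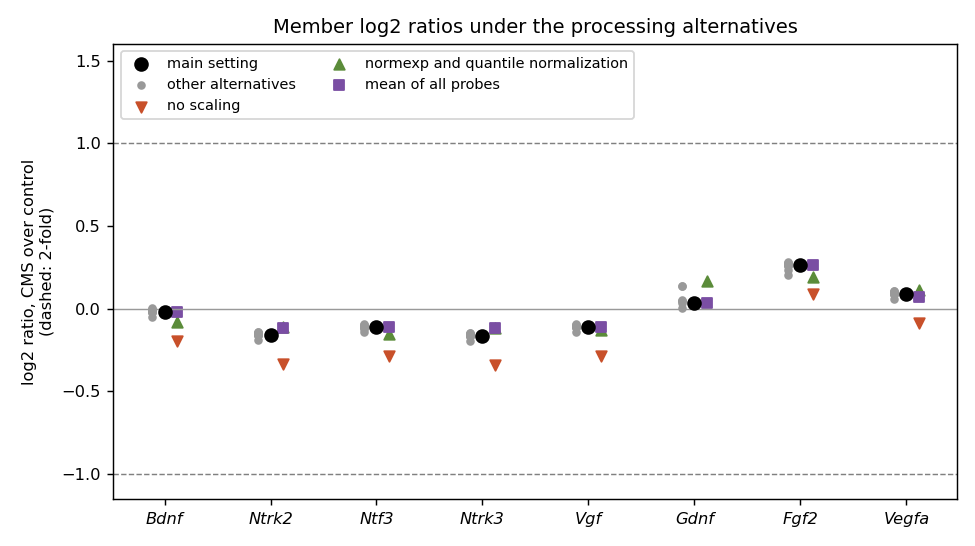
Log2 ratio of CMS over control of the 8 genes under the main setting (large circles) and the processing alternatives (small symbols), with dashed lines at 2-fold. No scaling (triangles pointing down) lowered each ratio it gave, by the difference in mean signal between the arrays, and every value stayed inside 2-fold.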

How the data were processed

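Gene expression of the PFC was measured on 2 one-color Agilent arrays, 1 for the control pool and 1 for the CMS pool. The authors deposited scanner files of Agilent Feature Extraction 10.10.1.1 (per the submitters' processing notes and file headers), whose processed signal is a background-subtracted intensity on a linear scale, and a table of that intensity multiplied by 1 factor per array.

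Left out were control spots and those marked as outliers (130 for the control pool, 133 for the CMS pool). After averaging the spots of a probe, the signals of each array were multiplied to reach a mean of 2500 over 55674 probes. The mean before scaling was 2929 and 2597. No spot was saturated, and 65.2% and 65.9% of spots were well above background. Probes dim on both arrays received no ratio. Where a gene had several probes, the probe brightest in mean log2 signal stood for it. A gene was counted where its ratio passed 2 or 0.5. Accessions were named through RefSeq (GRCm38.p6), which gave a symbol to 30740 of 59305 spots.

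The members and lists were chosen with earlier results of these data known. Some genes of the lists are not reported here and entered no list value. Genes named are the 8 members, every pathway gene past 2-fold, the 2 largest ratios per list among genes well above background on both arrays, 5 activity-induced genes and Gapdh. Others named in the text (Ntf5, Kdr, Flt1, Flt4, Homer1, Nptx2, Lifr, Nrg2, Fgf16, Furin, Cadps2, Creb1, Fgfr1 and genes dim in both pools) were chosen after their values were seen. No test was possible with 1 array per group, and the number of arrays limits the precision of every ratio. The code that computes ratios was tested on simulated data, which says nothing about variation between mice. The alternatives were other scalings, quantile normalization, normexp (offset 50), the deposited table, other treatments of dim and outlier spots and the mean of all probes. Python 3.11.15, numpy 2.4.6, pandas 2.3.3, matplotlib 3.10.9, R 4.3.3 and limma 3.58.1 were used.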

Additional observations from a re-analysis of the deposited data

How the results depend on the processing

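No paired analysis was possible because each group holds a single array, and for that reason no replicate was left out. Of the main values recomputed under the alternatives, 446 were labelled the same and 55 moved. A ratio or a median was the same within a limit set from the spread between spots. A count was the same where it was equal or near the main count. By that rule 775 genes higher past 2-fold with no bound for dim probes were labelled the same as 532. The tally also holds counts that stayed at 0 and settings that leave a gene bright on both arrays as it was. It is therefore not a measure of robustness. The cause of a move was not tested unless the setting itself gives it. No member passed 2-fold under any alternative. Probes near background limit the reading, the median signal being 3.64 and 3.76 times the lowest signal well above background.

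With no scaling, the median of all genes shifted by -0.17, to -0.20, by construction. Bdnf was then -0.19, Ntrk2 -0.33, Ntf3 -0.29, Ntrk3 -0.34, Vgf -0.28, Fgf2 0.091, Vegfa -0.086, the member median -0.28 and the pathway median -0.21, and Gdnf had no ratio. Relative to the median of all genes, Bdnf was 0.011 or 0.012, Fgf2 0.29 or 0.30 and Vegfa 0.12 with and without scaling. List medians with no scaling were neurotrophins -0.19, their receptors -0.33, proneurotrophin processing -0.21, Trk signalling -0.24, granins -0.21, GDNF family ligands -0.12 and receptors -0.26, fibroblast growth factors -0.21 and their receptors -0.17, VEGF ligands -0.21 and receptors -0.15, other factors -0.17 and activity-induced genes -1.14. The other factors past 2-fold numbered 1 and all genes lower 250.

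Under normexp with quantile normalization, Gdnf was 0.17, the neurotrophin receptors -0.058, the activity-induced genes -0.84, pathway genes higher 1, other factors past 2-fold 0, and all genes past 2-fold 303, with 265 higher and 38 lower. With no bound for dim probes, the GDNF family ligands were 0.14, pathway genes higher 5, fibroblast growth factors past 2-fold 2, VEGF receptors past 2-fold 1, all genes 1090 and all genes lower 315. With only probes above background on both arrays, the VEGF receptors were -0.081, pathway genes lower 0, fibroblast growth factors past 2-fold 0, other factors 1, and all genes 338, with 294 higher and 44 lower. With neither filter nor bound, pathway genes higher numbered 7, fibroblast growth factors past 2-fold 3, VEGF receptors 1, and all genes 2562, with 1493 higher and 1069 lower. Fewer or more probes enter these filters by construction. With the mean of all probes, other factors past 2-fold numbered 1. The pathway median was -0.012 with 75th percentile scaling and -0.063 with median scaling, where Trk signalling was -0.094. The share of genes past 2-fold that were higher was 77.7%, and ran from 58.3% with neither filter nor bound to 87.5% under normexp, with 63.1% for no scaling and 71.1% for no bound. Of the values of single named genes other than the members, 293 were the same and 41 moved, 28 of these with no scaling and 6 under normexp, where Cntf (0.085) and Areg (0) no longer passed 2-fold.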
